A study of Mus musculus with 19 samples.

Results

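The genes described here encode synaptic adhesion proteins of the neurexin, neuroligin and LRRTM families. They were chosen by symbol, as a fixed list of 9 genes (Nrxn2, Nrxn3, Nlgn1, Nlgn2, Nlgn3, Lrrtm1, Lrrtm2, Lrrtm3 and Lrrtm4), and all 9 were found among the 20436 genes of both the RNA-seq and the ribosome profiling tables. Neurexins sit mainly in the presynaptic membrane, where they bind across the cleft to neuroligins and to LRRTMs (leucine-rich repeat transmembrane proteins) in the postsynaptic membrane. Nlgn2 is known for its place at inhibitory synapses and Nlgn1 at excitatory synapses, Nlgn3 is found at both, and the LRRTMs act at excitatory synapses, where they bear on AMPA receptors. Each neurexin gene is transcribed from separate promoters into long alpha and short beta forms, which are further varied by alternative splicing, and the gene-level counts used here add these forms together.

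The libraries came from hippocampal slices of wild-type male mice aged 28 to 42 days. The basal slices received vehicle (ACSF, artificial cerebrospinal fluid) and the treated slices 100 µM DHPG, an agonist of group 1 metabotropic glutamate receptors that induces long-term depression, for 5 min in both cases. All slices, basal ones included, then received cycloheximide at 100 µg/ml, which halts elongating ribosomes. RNA-seq was available for 4 basal and 5 DHPG replicates, and RPFs (ribosome-protected fragments, the mRNA pieces that a ribosome shields from nuclease) for 5 basal and 5 DHPG replicates. The study pooled slices of several mice into a lysate, and the labels do not say which animals entered which library, so p-values measure the spread between these libraries. The libraries mix neurons and glia of the whole slice, and fewer cells of a type cannot be told apart from less RNA per cell.

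Library totals ran from 4870813 to 7793244 counts in RNA and from 5692064 to 22092434 in RPF, and a count of 253 to 5221 in RNA and of 219 to 8983 in RPF stood behind each value of these 9 genes. Markers of excitatory and inhibitory neurons, astrocytes, oligodendrocytes and microglia were all detected. The summed oligodendrocyte markers, 7 genes, ran from 2648 to 5636 CPM (counts scaled to the size of the library) in basal RNA and from 3025 to 6323 CPM in DHPG RNA. Of the 11 thalamic markers tested in RPF, 4 passed in DHPG against basal, with sums of 275 to 343 CPM in basal and 293 to 402 CPM in DHPG libraries, where 0.273% of all genes passed. In RNA 1 of 9 thalamic markers passed, Prkcd, which was the 1 gene called in RNA in all. The marker lists were chosen with earlier results of these data known, so these counts are a description and no independent result. The part of the thalamic markers in the results below was not tested.

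In mm10 coordinates the neurexin genes lie at chr19:6418731-6544169, plus strand (Nrxn2), and chr12:88722876-90334935, plus strand (Nrxn3). The neuroligin genes lie at chr3:25426215-26332460, minus strand (Nlgn1), chr11:69823122-69837784, minus strand (Nlgn2), and chrX:101299168-101325963, plus strand (Nlgn3). Nlgn1 thus spans 906246 bases and Nlgn2 14663, although their longest coding sequences are close in length, 2532 and 2511 bases. Of the 4 LRRTM genes, 3 lie within alpha-catenin genes on the opposite strand. Lrrtm1 (chr6:77242689-77257791, plus strand) is inside Ctnna2, Lrrtm2 (chr18:35209003-35215024, minus strand) inside Ctnna1, and Lrrtm3 (chr10:63928472-64090277, minus strand) inside Ctnna3. Exons of Lrrtm2 and Ctnna1 overlap, and since strand use in counting is not given in the sources used here, the counts of Lrrtm2 are uncertain. Lrrtm4 (chr6:80018877-80810143, plus strand) has no such host gene.

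The first question was how strongly each gene was expressed, at the RNA level and in ribosome footprints. Levels between genes were compared per kilobase (CPM per kb), using for RNA the length of the transcript with the longest coding sequence and for RPF that coding sequence without 30 bases at either end, as the authors counted it. Among the 9 genes Nrxn2 had the highest RNA level, 97.7 ± 32.2 CPM per kb (SD, n = 4), followed by Lrrtm1 at 63.9 ± 11.04 and Nlgn2 at 61.6 ± 22.2. In RPF the highest level was that of Nlgn3, 114 ± 10.4 CPM per kb (SD, n = 5), followed by Nrxn3 at 81.6 ± 9.13 and Lrrtm1 at 79.9 ± 4.74. In this order Nrxn2 held rank 1 in RNA and rank 6 in RPF, and Nlgn2 rank 3 and rank 7.

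In basal RNA the order continued with Nrxn3 (35.4 ± 3.60 CPM per kb), Nlgn3 (32.3 ± 7.51), Lrrtm4 (19.6 ± 2.86), Lrrtm3 (12.8 ± 1.34), Lrrtm2 (12.8 ± 2.35) and Nlgn1 (10.05 ± 1.56). Neighbours that changed places between basal libraries were Lrrtm1 and Nlgn2, Nrxn3 and Nlgn3, and Lrrtm3 and Lrrtm2, each pair being in the stated order in 3 of 4 libraries. The other neighbours kept their order in 4 of 4 basal and in 9 of 9 RNA libraries. With these lengths Nlgn1 had the lowest RNA level of the 9. It was close to the median of 9.60 CPM per kb over all 12437 genes with a length, while Nrxn2 was at the 94.7 percentile.

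In basal RPF, Lrrtm4 (57.4 ± 8.52 CPM per kb), Lrrtm2 (52.9 ± 7.89), Nrxn2 (45.7 ± 3.15), Nlgn2 (38.4 ± 2.43), Nlgn1 (37.2 ± 4.67) and Lrrtm3 (22.8 ± 3.73) came after the first 3. Here Nlgn3 was above Nrxn3 in 10 of 10 libraries and Nlgn1 above Lrrtm3 in 10 of 10. Nlgn2 and Nlgn1 could not be ordered, Nlgn2 being higher in 3 of 5 basal libraries, and Nrxn3 and Lrrtm1, Lrrtm4 and Lrrtm2, and Nrxn2 and Nlgn2 were in the stated order in 4 of 5. Among all 12700 genes with a length in RPF, these 9 ran from the 56.6 percentile (Lrrtm3) to the 87.1 percentile (Nlgn3). Taking the mean length over all coding transcripts in place of the longest raised Nrxn3 to 63.1 CPM per kb in RNA and 135 in RPF, which put Nrxn3 above Nlgn3 in RPF, and raised the RNA level of Nlgn1 to 20.2 CPM per kb.

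**Figure D1:**
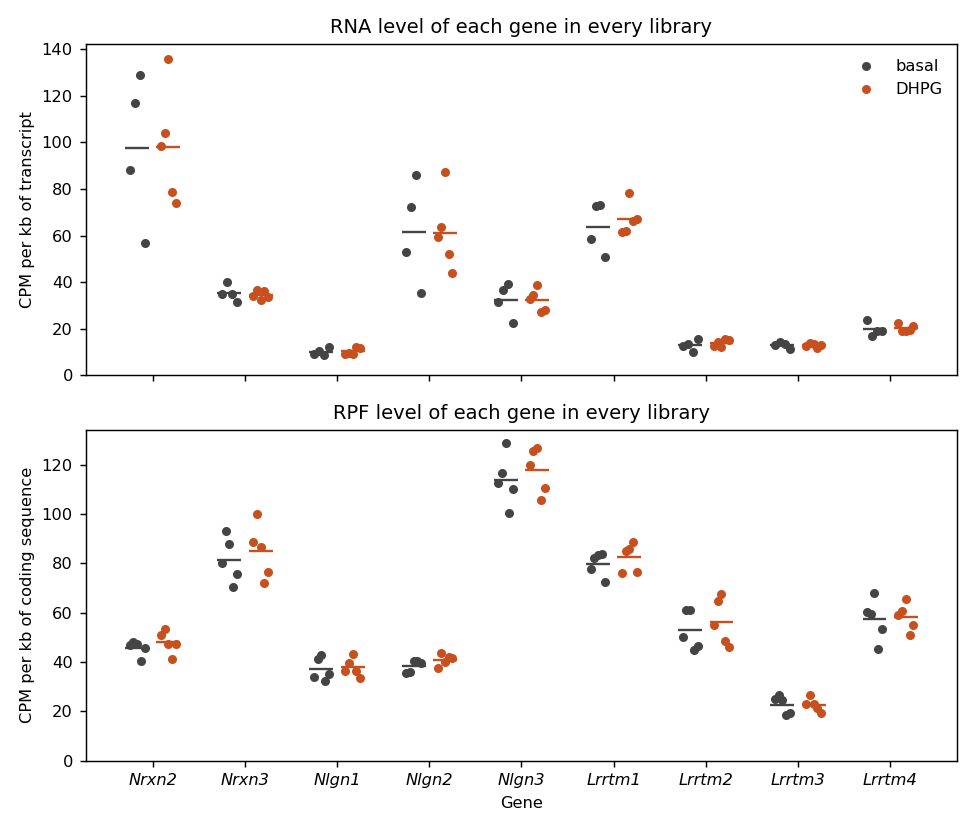
Level of the 9 genes in each library, in CPM per kb of transcript for RNA (upper panel, 4 basal and 5 DHPG libraries) and of coding sequence for RPF (lower panel, 5 and 5), with points for libraries and lines for group means. Nrxn2 and Nlgn2 spread widely in RNA and little in RPF, and basal and DHPG points overlap for every gene.

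Replicate libraries differed much more for some of these genes in RNA than in RPF. The basal RNA of Nrxn2 was 558, 738, 813 and 358 CPM in replicates 1 to 4, and its DHPG RNA 621, 656, 858, 497 and 467 CPM in replicates 1 to 5. Replicate 3 was the highest library in both groups and basal replicate 4 the lowest of all. Nlgn2 followed the same libraries, with 295, 402, 479 and 197 CPM in basal RNA and 330, 354, 486, 289 and 244 CPM in DHPG RNA. Nlgn3 had 267, 312, 336 and 190 CPM in basal RNA. On the log2 CPM scale the SD over basal RNA libraries was 0.53 for Nrxn2 and 0.56 for Nlgn2, against a median of 0.26 over all genes tested, and these were at the 91.3 and 93.1 percentile of that spread. Nlgn1 went the other way, with 108, 121, 102 and 144 CPM, so that replicate 4 was its highest basal library.

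The RPF values of the same genes were close together. Nrxn2 had 239, 245, 240, 204 and 233 CPM in basal RPF, and Nlgn2 87.3, 88.0, 99.0, 99.1 and 97.0 CPM. Replicates 3 and 4, which were farthest apart for Nlgn2 in basal RNA, were level in RPF. The SD on the log2 CPM scale over basal RPF libraries was 0.10 for Nrxn2 and 0.09 for Nlgn2, at the 27.7 and 21.5 percentile of all genes tested.

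Within each family, the split among the genes differed between RNA and RPF. Shares were taken of the summed CPM per kb of the family genes listed here, so that the neurexin share refers to Nrxn2 and Nrxn3 alone. They rest on the transcript with the longest coding sequence and were not computed with the mean length over coding transcripts. Nrxn2 made up 71.6, 74.5, 78.6 and 64.4% of that sum in the 4 basal RNA libraries, but 36.9, 34.1, 34.96, 36.3 and 37.7% in the 5 basal RPF libraries. The RNA and RPF values did not overlap, and the larger neurexin in RNA was the smaller in RPF. Nlgn2 was 56.7, 60.7, 64.2 and 50.6% of the neuroligins in basal RNA and 19.5, 18.5, 18.96, 23.4 and 21.4% in basal RPF. Nlgn3 took the larger share in RPF, at 60.04 ± 1.42% (SD, n = 5) against 31.4 ± 1.77% in RNA (n = 4), and Nlgn1 had 19.6 ± 1.15% in RPF against 10.6 ± 4.79% in RNA. Among the LRRTMs, Lrrtm1 was 58.2 ± 5.41% in RNA and 37.7 ± 3.38% in RPF, while Lrrtm2 went from 11.9 ± 3.11 to 24.8 ± 1.44% and Lrrtm4 from 18.2 ± 3.39 to 26.9 ± 2.14%. Lrrtm3 held a like share in both, 11.8 ± 0.35% and 10.7 ± 0.99%. After DHPG the shares in RPF were 36.2 ± 1.37% for Nrxn2, 20.9 ± 1.73% for Nlgn2 and 37.7 ± 2.96% for Lrrtm1 (n = 5), each within 1 SD of its basal share.

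**Figure D2:**
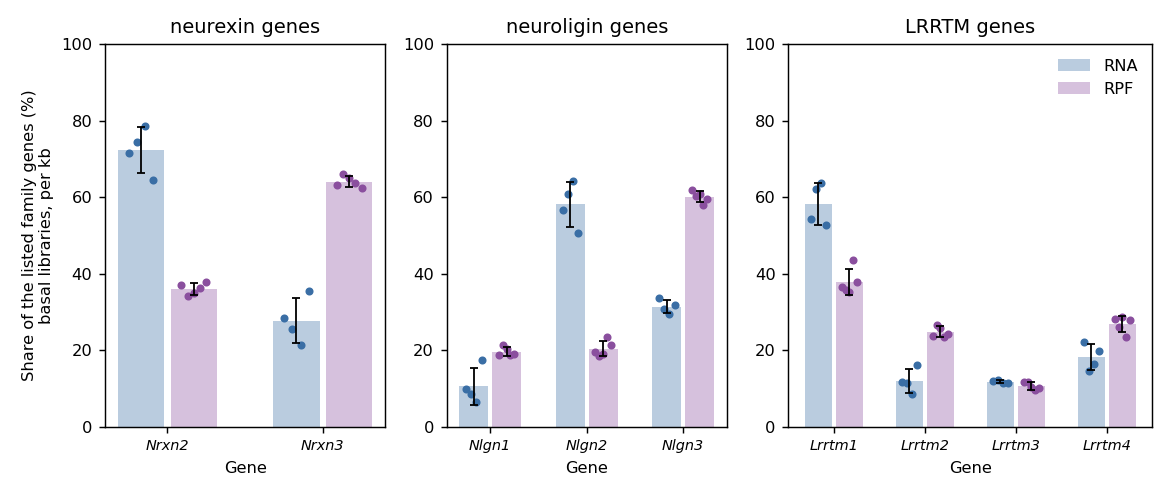
Share of each gene in the summed CPM per kb of the listed genes of its family, in basal RNA (4 libraries) and basal RPF (5 libraries), as bars for means, error bars for SD and points for libraries. Nrxn2 falls from a mean of 72.3% in RNA to 36.0% in RPF and Nlgn2 from 58.1% to 20.4%.

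The second question was how many footprints each gene had for its RNA. The RPF to RNA ratio, used in the field as translational efficiency (TE), was tested in the basal replicates with both assays (n = 4) with edgeR's quasi-likelihood test, the replicate number as a block and the median gene at 0 on the log2 scale. Nlgn2 and Nrxn2 had fewer footprints for their RNA than the median gene and Nrxn3 and Lrrtm4 more, so 4 of the 9 genes passed an adjusted p of 0.05, 2 in either direction. This ratio separates most genes from the median, and 70.3% of the 12140 genes tested passed, 35% of all genes as higher and 35.3% as lower, so that the count of 4 says little by itself and the position of each gene among all genes is given with it.

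Nlgn2 had log2 ratios of -1.57, -2.03, -2.10 and -0.82 in basal replicates 1 to 4. All were below 0, with replicate 4 the nearest to it, where its RNA was lowest. The fitted log2 ratio was -1.64 ± 0.21 (SE), with an edgeR quasi-likelihood adjusted p of 0.00019, which placed Nlgn2 at the 6.28 percentile of all genes. In the DHPG libraries the ratios of Nlgn2 were -1.65, -1.57, -2.15, -1.33 and -1.08.

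For Nrxn2 the basal log2 ratios were -1.04, -1.44, -1.59 and -0.64, and those after DHPG -1.09, -1.12, -1.68, -1.08 and -0.80. The order of the basal replicates was that of Nlgn2, and the ratio was below 0 in all 9 pairs of libraries. The fitted basal log2 ratio was -1.17 ± 0.16 (SE; edgeR adjusted p = 0.00029), at the 13.3 percentile.

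Nrxn3 lay on the other side, with basal log2 ratios of 0.61, 0.61, 0.73 and 0.58 that were nearly the same in each replicate. Its fitted value was 0.64 ± 0.10 (SE; edgeR adjusted p = 0.00065), at the 73.7 percentile. Lrrtm4 had 0.71, 1.15, 1.203 and 0.60, the highest ratios of the 9 genes by their mean, and a fitted value of 0.92 ± 0.15 (SE; edgeR adjusted p = 0.00059), at the 81.7 percentile.

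The other 5 genes did not pass, at fitted log2 ratios between -0.21 (Lrrtm1) and 0.34 (Lrrtm2) and edgeR adjusted p between 0.107 and 0.349. Nlgn3 had 0.24 (95% interval -0.04 to 0.52), Nlgn1 -0.17 (-0.53 to 0.19) and Lrrtm3 -0.15 (-0.41 to 0.11). For Lrrtm2 the replicates ran from -0.22 in replicate 4 to 0.89 in replicate 3, and without replicate 4 its log2 ratio was 0.54 and passed with an edgeR adjusted p of 0.0162.

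These ratios compare footprints in the coding sequence with RNA over the whole transcript, so a long noncoding part of the mRNA lowers them. The study's hippocampal TE took both assays over the coding sequence, so it is not the same measure. The transcript of Nlgn1 is 11807 bases long, that of Nlgn3 8541 and that of Nlgn2 5568. With both assays expressed per kilobase, the log2 ratio of Nlgn1 was 1.05 ± 0.16 (SE; edgeR adjusted p = 0.0003), of Nlgn3 0.99 ± 0.12 and of Lrrtm2 1.24 ± 0.18, each above the median gene, and 8 of the 9 genes passed. Nlgn2 (-1.48 ± 0.21) and Nrxn2 (-1.89 ± 0.17) stayed below it and Nrxn3 (0.37 ± 0.10) and Lrrtm4 (0.71 ± 0.14) above it, Lrrtm1 passed as lower (-0.49 ± 0.13), and Lrrtm3 was at 0.02 ± 0.11. Over all genes 9249 of the 11685 tested per kilobase passed, so the count of 8 says little by itself. Among all genes Nrxn2 was then at the 7.54 percentile, Nlgn2 at 13.5, Nrxn3 at 59.97, Lrrtm4 at 68.2, Nlgn3 at 74.7, Nlgn1 at 75.6 and Lrrtm2 at 79.1. These values use the transcript with the longest coding sequence. With the mean length over coding transcripts, the basal RNA of Nlgn1 was 20.2 against 10.05 CPM per kb and its RPF 37.8 against 37.2. The per-kilobase ratio of Nlgn1 thus depends on that choice, and it was not fitted with the mean length.

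**Figure D3:**
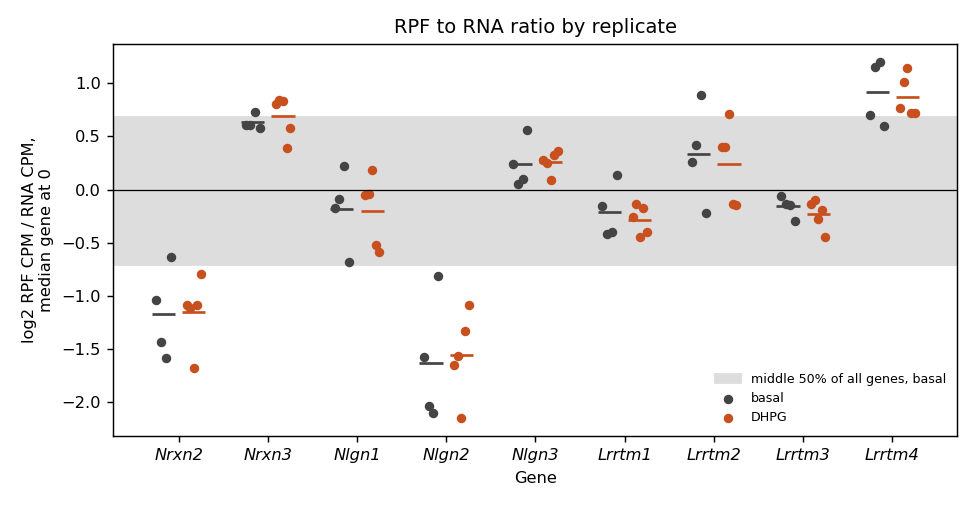
Log2 RPF to RNA ratio of the 9 genes in each replicate with both assays (4 basal, 5 DHPG), with the median gene of each replicate at 0, lines at group means and the grey band for the middle 50% of all genes in the basal fit. All points of Nrxn2 and Nlgn2 lie below 0 and all points of Nrxn3, Nlgn3 and Lrrtm4 above it.

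Set against each other, genes of the same family differed in the ratio in every replicate for 7 of the 10 pairs within a family, in 4 of 4 basal and also in 5 of 5 DHPG replicates. How often other pairs of genes kept their order was not computed. The same genes recur in several pairs, so the count of 7 says little by itself. It was taken on ratios not corrected for length, and the order per kilobase was not counted by replicate. Nrxn3 was above Nrxn2 by 1.81 ± 0.48 on the log2 scale (SD, n = 4 basal replicates; range 1.22 to 2.32), a 3.50-fold difference. Nlgn3 was above Nlgn2 by 1.87 ± 0.37 (range 1.38 to 2.20), or 3.65-fold, and Nlgn1 above Nlgn2 by 1.45 ± 0.96, with 0.14 in replicate 4 and 2.33 in replicate 3. Nlgn3 and Nlgn1 were not separated (0.42 ± 0.59, same direction in 3 of 4). Lrrtm4 was above Lrrtm1 by 1.12 ± 0.56, above Lrrtm3 by 1.07 ± 0.29 and above Lrrtm2 by 0.58 ± 0.24, in 4 of 4 replicates each, and Lrrtm2 above Lrrtm3 by 0.50 ± 0.41. Lrrtm3 and Lrrtm1, and Lrrtm2 and Lrrtm1, changed places between replicates in these ratios without length correction. With 4 replicates a two-sided exact sign-flip permutation test cannot go below p = 0.125, which these 7 pairs reached, with an adjusted p of 0.179 over the 10 pairs. Per kilobase, Lrrtm4 was below Lrrtm2 by 0.53, and the differences of Nrxn3 from Nrxn2 and of Nlgn3 from Nlgn2 were 2.26 and 2.48. Those of Lrrtm2 and of Lrrtm3 from Lrrtm1 were then 1.73 and 0.51. The difference of Nlgn1 from Nlgn2 was 2.53 per kilobase, and that of Nlgn3 from Nlgn1 was -0.06.

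Nrxn2 and Nlgn2, which had the lowest ratios, were also the richest in G and C. Whether the ratio followed base composition among the other 7 genes was not tested. The coding sequences of Nrxn2 and Nlgn2 were 62.6% and 62.7% G and C, at the 94.7 and 94.8 percentile of all genes, while those of the other 7 genes ran from 44.96% (Lrrtm2) to 58.6% (Lrrtm1). Over all genes the median log2 ratio fell from 0.65 below 45% GC to -0.54 above 60%. Of the 1447 genes above 60%, 13.1% had a lower ratio than Nlgn2 and 25.7% a lower ratio than Nrxn2. With the trend of each library with GC content and transcript length removed, a setting chosen after these values were seen, Nlgn2 had a log2 ratio of -1.04 ± 0.11 (SE; edgeR adjusted p = 2.69e-06) and Nrxn2 of -0.56 ± 0.08 (edgeR adjusted p = 5.34e-05). Nrxn3 had 1.02 ± 0.07, Nlgn3 0.80 ± 0.09 and Lrrtm4 0.60 ± 0.08 under that setting, and these 5 and Lrrtm3 (-0.22 ± 0.09, edgeR adjusted p = 0.047) passed. Over all genes 8919 of the 11685 tested passed under that setting, so passing says little by itself. The differences were then 1.58 between Nrxn3 and Nrxn2 and 1.84 between Nlgn3 and Nlgn2. Those of Lrrtm4 from Lrrtm1 and of Lrrtm2 from Lrrtm1 were smaller, 0.47 against 1.13 and -0.0044 against 0.55 without the correction, that of Nlgn1 from Nlgn2 was 1.03 against 1.46, and that of Nlgn3 from Nlgn1 was larger, 0.81 against 0.41. Lrrtm1 moved to 0.12 ± 0.08 and did not pass.

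**Figure D4:**
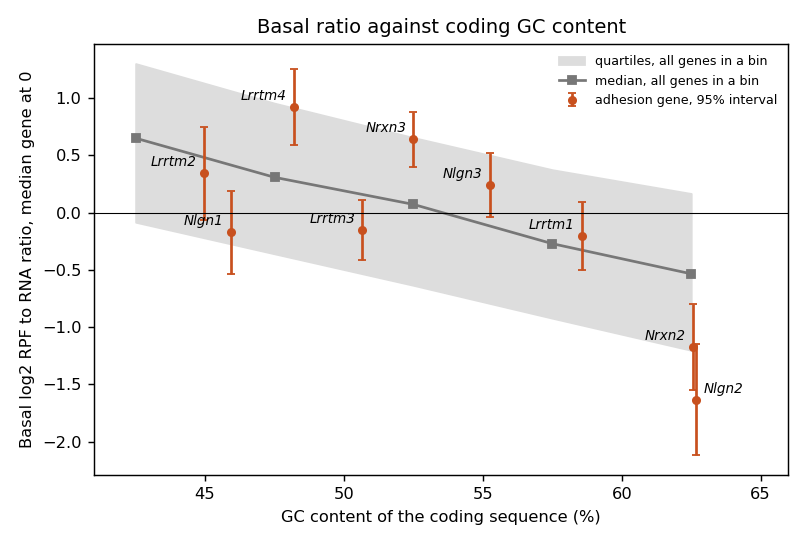
Basal log2 RPF to RNA ratio of the 9 genes (points, 95% intervals of the fit) against the GC content of the coding sequence in percent, with the median (squares) and quartiles (grey) of all genes in 5 bins, the outer bins, under 45% and over 60%, being drawn at the left and right end. Nrxn2 and Nlgn2 lie at the GC-rich end and below the median of their bin.

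The third question, which the study was built for, was what 5 min of DHPG changed. With edgeR's quasi-likelihood test, 0 of the 9 genes passed in RNA, at an adjusted p of 0.01, and 0 in RPF, at an adjusted p of 0.05 (the study's thresholds). Few genes did at all, 0.00773% of the 12935 genes tested in RNA and 0.273% of the 13208 tested in RPF (0.22% as higher and 0.053% as lower). The study called many more genes at these thresholds, but from more replicates and with another test after its own batch correction, so the counts are not alike. At an unadjusted p under 0.05, 0 of the 9 genes were found in RNA and 3 in RPF (Nlgn2, Lrrtm2 and Nrxn2). These counts stand beside 8.09% of all genes in RNA and 10.8% in RPF at that unadjusted p. DESeq2 with the block called 0 of the 9 in RNA, but in RPF it gave an adjusted p for only 2 of them (Nrxn3 and Nlgn3), so it makes no check on the others. After ComBat it called 0 of 9 in RNA and 0 of the 8 with an adjusted p in RPF.

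In RNA the 9 log2 fold changes lay between -0.01 (Nrxn3) and 0.14 (Nlgn2), with SEs of 0.07 to 0.08, a median of 0.07 against 0.007 over all genes, and edgeR adjusted p of 0.663 to 0.982. The 95% intervals together covered folds from 0.896 to 1.246. The pairs of Nlgn2 were 0.16, -0.18, 0.02 and 0.56 in replicates 1 to 4, and those of Nrxn2 0.16, -0.17, 0.08 and 0.47. Both values moved with single replicates. Without replicate 4 the log2 fold changes of Nlgn2 and Nrxn2 were 0.002 and 0.02, and without replicate 2 they were 0.25 and 0.24 (edgeR adjusted p = 0.0794 and 0.0872). With the GC and length trend removed, they were 0.045 for Nlgn2 and 0.039 for Nrxn2. For Lrrtm2, DHPG RNA was 70.9, 81.3, 69.2, 88.7 and 85.2 CPM against 70.7, 75.9, 55.6 and 87.7 CPM in basal slices. It was higher in 4 of 4 pairs, by 0.11 ± 0.08 (SE) in the fit, and the groups overlapped.

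In RPF 8 of the 9 genes had a log2 fold change above 0, with a median of 0.05 against 0.003 over all genes. The largest was that of Nlgn2, whose RPF was 92.5, 107, 97.7, 103 and 103 CPM after DHPG against 87.3, 88.0, 99.0, 99.1 and 97.0 CPM in basal slices. It was higher in 4 of 5 pairs but the groups overlapped, and the log2 fold change was 0.10 ± 0.04 (SE; edgeR adjusted p = 0.334 over all genes). Without replicate 2, its log2 fold change was 0.04. Lrrtm2 had 82.2, 96.1, 101, 72.2 and 68.6 CPM after DHPG and 74.8, 91.2, 91.2, 67.0 and 69.3 CPM in basal slices, higher in 4 of 5 pairs. Its log2 fold change was 0.09 ± 0.04 (SE; edgeR adjusted p = 0.377). Nrxn2 had 258, 270, 239, 210 and 240 CPM after DHPG, again higher in 4 of 5 pairs, by 0.07 ± 0.03 (SE; edgeR adjusted p = 0.422). With the GC and length trend removed, the RPF log2 fold changes were 0.057 for Nlgn2, 0.11 for Lrrtm2 and 0.028 for Nrxn2.

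For the neurexin Nrxn3 the RPF log2 fold change was 0.05 (95% interval -0.01 to 0.11), for Nlgn3 0.05 (-0.01 to 0.11) and for Lrrtm1 0.05 (-0.02 to 0.12), each higher in 4 of 5 pairs. Nlgn1 (0.02), Lrrtm4 (0.02) and Lrrtm3 (-0.01) were nearest to 0, and the pairs of Lrrtm3 ran from -0.12 to 0.22. Over the 9 genes the 95% intervals covered folds from 0.927 to 1.13.

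**Figure D5:**
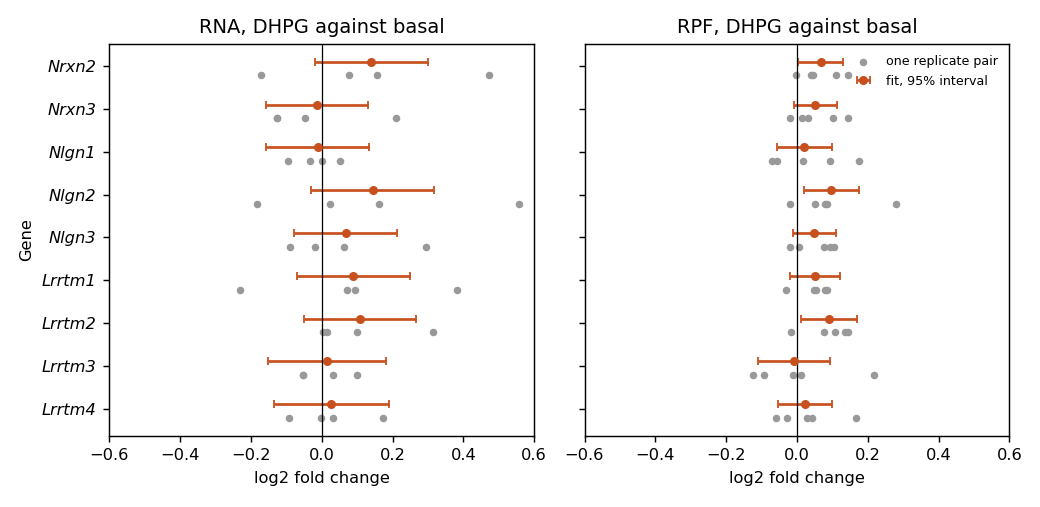
Log2 fold change of DHPG against basal for the 9 genes in RNA (left, 4 pairs) and RPF (right, 5 pairs), with the fitted value and its 95% interval in orange and single replicate pairs in grey. Fitted values lie between -0.01 and 0.14 in RNA and between -0.01 and 0.10 in RPF.

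The change of the RPF to RNA ratio after DHPG, tested as an interaction over all 19 libraries, lay between -0.07 (Nrxn2) and 0.07 (Nrxn3) on the log2 scale. Of the 9 genes 0 passed an adjusted p of 0.05, and the share over all 12691 genes was 0%, while at an unadjusted p under 0.05 there were 862 genes, none of them among the 9. The adjusted p of the 9 ran from 0.895 to 0.999 with edgeR, and limma on the log2 CPM differences likewise passed 0 genes. Nlgn2, with the widest interval, had a change of -0.05 (-0.30 to 0.20).

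The genes that work with these proteins were taken from a list of 86 in 5 groups, and all 86 were tested for DHPG. In RNA and in RPF 0 of the 86 passed in either direction. The median of the 86 was 0.06 on the log2 scale in RNA and 0.03 in RPF, with 16 genes at an unadjusted p under 0.05 in either assay, where 8.09% of all genes in RNA and 10.8% in RPF were under it. In RPF a positive value was found for 16 of 18 ligands and receptors of neurexins, 29 of 33 other adhesion organisers and 12 of 24 scaffolds, against 51.4% of all genes, and these shares were not tested. Among the ligands and receptors the smallest p belonged in RNA to Cbln1, a secreted bridge between neurexins and delta receptors (log2 fold change -0.83 ± 0.26 SE, edgeR adjusted p = 0.498), and Sdc3, a syndecan (0.20, adjusted p = 0.573), and in RPF to Sdc3 (0.11 ± 0.04, adjusted p = 0.194) and Cbln4 (-0.28 ± 0.09, adjusted p = 0.198). Among the 33 other adhesion organisers they were the netrin-G genes Ntng1 (0.25) and Ntng2 (0.16) in RNA, and Flrt1 (0.22 ± 0.06, edgeR adjusted p = 0.114) and Il1rap (0.09) in RPF. Cbln1 and Cbln4 had the opposite sign in the other assay, Cbln1 at 0.08 ± 0.13 (SE) in RPF and Cbln4 at 0.29 ± 0.23 in RNA.

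Of the 24 scaffold genes, Shank3, a postsynaptic scaffold protein, had the smallest p in RNA (0.27 ± 0.07, edgeR adjusted p = 0.281), followed by Dlgap4 (0.22). In RPF it was that of Dlg3, which encodes SAP102 (-0.11 ± 0.03, edgeR adjusted p = 0.125). Among 8 splicing and cleavage factors the smallest p were those of Bace1 (0.18) and Nova2 (0.18) in RNA and of Khdrbs3 (-0.04) and Bace1 (0.04) in RPF. The alpha-catenin host genes had log2 fold changes of 0.18 (Ctnna3) and -0.06 (Ctnna2) in RNA, and of 0.10 (Ctnna3) and -0.03 (Ctnna1) in RPF, none of which passed.

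In the basal RPF to RNA ratio, 60 of the 84 partner genes tested passed, 28 as higher and 32 as lower, beside 70.3% of all genes. Of 17 ligands and receptors 10 passed as higher and 4 as lower, with a median log2 ratio of 0.59, and of 33 other adhesion organisers 8 passed as higher and 19 as lower, with a median of -0.61, against a median of -0.001 over all genes. The scaffolds had 5 higher and 8 lower of 24. No difference between the groups was tested. Chosen after their values were seen, Lrrc4b (-2.52 ± 0.21 SE) and Lrrc4 (-2.45 ± 0.12), of the netrin-G ligand family, and the scaffold Shank1 (-2.64 ± 0.21) were below Nlgn2, and Sdc2 (1.90 ± 0.14) and Cbln4 (1.71 ± 0.19) above Lrrtm4. They were not the only ones. Dlgap3 (-2.44 ± 0.19) was also below Nlgn2, and Lin7c (2.04 ± 0.25) and Khdrbs1 (1.97 ± 0.17) were above Sdc2.

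Lastly, the genes whose RPF levels most resembled each member over the 10 RPF libraries were listed by Pearson's r of log2 CPM, as a description over libraries that share replicates. Lrrtm2 was nearest to Gria1, an AMPA receptor subunit (r = 0.992), and Npy1r (0.977), although over the 9 RNA libraries these were at 0.604 and 0.329. Nrxn3 was nearest to Glg1 and Nell2 (both 0.990), Nlgn3 to Cd81 (0.987) and Slc39a6 (0.981), Lrrtm4 to Pcdhga1 (0.978) and Ptpro (0.971), and Nrxn2 to Trf, which encodes transferrin (0.972), and Ssr2 (0.970). The nearest were Kmt2e (0.961) and Vps13d (0.957) for Nlgn1, Pcsk1 (0.952) and Slc4a10 (0.950) for Lrrtm3, Gal3st3 (0.943) and Il27ra (0.917) for Nlgn2, and Tor1aip1 (0.914) and Insig2 (0.903) for Lrrtm1. In RNA the same pairs ranged from -0.502 (Lrrtm1 and Tor1aip1) to 0.948 (Nlgn2 and Gal3st3).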

How the data were processed

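Gene-level expected counts from RSEM were deposited as whole numbers. Per the study's methods, the authors trimmed reads with cutadapt, removed rRNA and tRNA reads with bowtie2, mapped the rest to mm10 with TopHat2, kept unique reads, collapsed UMIs and counted RPFs on coding sequences without 30 bases at either end and RNA on whole transcripts. Another 12 columns match no sample here and were not used. Counts were scaled by TMM and tested with edgeR 4.0.16 (quasi-likelihood, Benjamini-Hochberg, genes with low counts removed by filterByExpr) in R 4.3.3, with the replicate number as a block, as the study corrected for batch. Same-numbered libraries deviated together (r of deviations from group means 0.31 to 0.742 in RNA, 0.257 to 0.522 in RPF); in RNA, replicate 2 correlated more with another number (0.469) than with its own (0.31). DHPG RNA replicate 5 has no basal partner, so it bears on the blocked contrast only through scaling and the estimate of spread. limma 3.58.1, DESeq2 1.42.0 and ComBat (sva 3.50.0) served as alternatives. The steps were tested on simulated data. Gene models, lengths and GC content came from GENCODE M21, which gave a coding model for 19475 genes. Depth covers counting error only. The genes, partner and marker lists were chosen with earlier results of these data known. Genes were named by rule: the 9 genes, in each partner group the 2 with the smallest p in RNA and in RPF, and the 2 most alike in RPF. Partner genes past a threshold, which only the basal ratio had, were given as counts, apart from a few named after their values were seen. A gene that this rule names among the scaffolds is not reported here.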

Additional observations from a re-analysis of the deposited data

How the results depend on the processing

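Wherever an alternative gave an adjusted p, 0 of the 9 genes passed after DHPG in RNA, in RPF or in the ratio (lowest adjusted p 0.0794, 0.0874 and 0.35). In RPF, DESeq2 with the replicate block gave none for 7 of the 9 genes, and after ComBat none for Lrrtm3, so these were not tested there. In the basal ratio Nlgn2, Nrxn2, Nrxn3 and Lrrtm4 kept direction and call under every alternative. The numbers of genes passed were less steady. In RNA, against 1 gene, 7 passed with no filter on low counts, 100 after ComBat and DESeq2, 2 at an adjusted p under 0.05, 2 with the GC and length trend removed and 0 with DESeq2. In RPF, against 36, 90 passed with no filter, 427 after ComBat and DESeq2 and 6 at an adjusted p under 0.01. In the change of the ratio, against 0, 6 passed with no filter. Leaving out a replicate gave 0 to 34 genes in RNA (34 without replicate 2), 2 to 103 in RPF (2 without replicate 2, 5 without the first, 103 without the third and 57 without the fifth), 0 to 7 in the change of the ratio (7 without replicate 2) and 7274 to 8459 in the basal ratio, with 4 to 5 of the 9 genes.

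Without the replicate block, 0 genes passed in RNA and 0 in RPF, and log2 values on the other side of 0 were those of Nlgn1 (0.044), Nlgn2 (-0.0038) and Nlgn3 (-0.00027) in RNA and of Nrxn2 (0.054), Nlgn1 (-0.022), Nlgn2 (0.097), Nlgn3 (0.048) and Lrrtm4 (-0.029) in the change of the ratio. With the GC and length trend removed these were Nlgn3 in RNA (-0.0019), Nlgn2 (0.014), Nlgn3 (0.041) and Lrrtm4 (-0.0099) in the change of the ratio, and Lrrtm1 in the basal ratio (0.12). The change of the ratio of Lrrtm4 was -0.00081 with DESeq2 size factors, -0.0013 with no filter and -0.0047 with limma, which gave 0.0035 for Lrrtm2.

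Leaving out a replicate also crossed 0 in RNA for Nrxn3 (-0.098 to 0.024), Nlgn1 (-0.033 to 0.017), Nlgn3 (-0.014 to 0.12), Lrrtm1 (-0.016 to 0.19), Lrrtm3 (-0.023 to 0.037) and Lrrtm4 (-0.012 to 0.062), and in RPF for Nlgn1 (-0.013 to 0.043), Lrrtm3 (-0.051 to 0.022) and Lrrtm4 (-0.0063 to 0.051). In the change of the ratio it did so for Nrxn2 (-0.20 to 0.051), Nlgn2 (-0.21 to 0.10), Nlgn3 (-0.086 to 0.059), Lrrtm1 (-0.15 to 0.057), Lrrtm2 (-0.059 to 0.021), Lrrtm3 (-0.044 to 0.0096) and Lrrtm4 (-0.030 to 0.035), and in the basal ratio for Nlgn1 (-0.31 to 0.0046). In the basal ratio 7 of the 9 genes passed in the DHPG libraries with the replicate block and 8 per kilobase, where Nlgn1 (1.05) and Lrrtm3 (0.018) changed sign. Over all genes 9302 of 12076 passed in the DHPG libraries and 9249 of 11685 per kilobase, so these counts are not particular to the 9 genes. The mean length over coding transcripts gave, in CPM per kb, 63.1 (Nrxn3), 20.2 (Nlgn1) and 19.05 (Lrrtm2) in RNA and 59.3 (Nrxn2), 135 (Nrxn3) and 70.4 (Lrrtm2) in RPF. The cause of these shifts was not tested. With 4 and 5 pairs, small changes were not detectable. The intervals given are not adjusted for the number of genes tested. In RPF those of Nlgn2, Lrrtm2 and Nrxn2 lay above 0, and these genes still did not pass. Of the 36 groups of libraries screened for a value far from the rest, 0 held such a value.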
